A study of Mus musculus with 10 samples.

Results

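The genes described here are 46 components of skeletal muscle: the actins, myosins and troponins of the sarcomere, the titin, nebulin and Z-disc proteins that hold it together, the calcium release apparatus that sets it off, and a few proteins of the muscle membrane and of muscle energy supply. They were chosen by name, with earlier results of these data known. Each was read from the probe set that carries its symbol alone and has the highest mean over the 10 arrays. All 46 were measured, of 18194 genes on the array, with no filter on low values. The array measured RNA of the mouse secondary palate at embryonic stage E14.5, during palatal fusion. The mutant group had 5 arrays from C57B6 embryos of genotype Tgfbr2fl/fl;Wnt1-Cre, and the control group had 5 arrays from C57B6 embryos of genotype Tgfbr2fl/fl, which the titles call wildtype. Both groups thus carry the floxed form of Tgfbr2, which encodes a receptor that TGF-beta ligands need to signal, and the sex of the samples was not determined. The series examines genes that depend on TGF-beta during palate formation, and its earlier stage was not analysed here.

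Muscle contracts when calcium, released from the sarcoplasmic reticulum through the ryanodine receptor, binds the troponin complex on the thin filament and lets myosin heads of the thick filament pull on actin. Developing fibres switch between isoforms of these proteins: embryonic and perinatal myosin heavy chains precede the adult fast chains, and slow and fast isoforms mark fibre types. The muscle fibres of the soft palate and jaw derive from cranial mesoderm, whereas Wnt1-Cre recombines in the neural crest, which gives rise to the palatal mesenchyme. The mutant is therefore a model in which the receptor is deleted in the crest lineage and not, by design, in the fibres.

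In mutant palate, RNA of the contractile apparatus was lower across most of its parts. Of the 46 genes, 26 (56.5%) fell and 0 rose at an adjusted p under 0.05 (limma, Benjamini-Hochberg over all 18194 genes), where 5.36% of all genes fell. For the 46 genes the median log2 fold change, mutant minus control, was -1.62, against 0.00 for all genes, and 44 of 46 were below 0, against 48.6% of all genes. Because the genes were chosen with earlier results of these data known, these contrasts describe the set and do not test it. The 26 fell between 2.39-fold, for the slow myosin binding protein Mybpc1, and 7.36-fold, for Tceal7, and all 26 passed a fold of 1.5 as well, which 0.797% of all genes did in this direction. In a bulk sample, fewer muscle fibres, less RNA per fibre and less muscle taken in the dissection cannot be told apart. The amount of muscle in each sample was not given.

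The adjusted p-values of the 26 ran from 0.000851 to 0.0428 and lay at 0.025 or above in 18 of them, so most calls stood near the threshold. Adjusted over all probe sets instead of genes, Actc1, Myl1, Tnnt2, Tnnt3, Tnnc2, Tnni1, Neb and Mybpc1 missed it. Their used probe sets then had limma adjusted p between 0.0507 and 0.058. Array by array, the median log2 value of the 46 genes was 5.95, 5.65, 5.70, 7.10 and 5.95 in mutants 1 to 5, against 7.05, 7.40, 7.20, 6.95 and 8.45 in controls 1 to 5. Mutant 4 thus lay among the controls, and control 5 lay above all other arrays. Mutant 4 was the highest mutant for 38 of the 46 genes and for all 26 that fell, while control 5 was the highest control for 39 of the 46. For all 26, mutants 1, 2, 3 and 5 lay below every control, and for 21 of them mutant 4 reached or passed the lowest control. The other 5, Myh7, Myot, Csrp3, Smpx and Tceal7, had every mutant array below every control array, which 4.93% of all genes did.

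Leaving out 1 array at a time changed how many of the 46 were called lower. The count was 30 without mutant 4 and 26 without control 1, but 9, 8, 8 and 9 without mutants 1, 2, 3 and 5, and 11, 8, 20 and 11 without controls 2, 3, 4 and 5. The share of all genes called lower, 5.36% with all arrays, was 3.86% without mutant 4 and 6.08% without control 1. It was 3.06%, 3.12%, 2.51% and 3.24% without mutants 1, 2, 3 and 5. Without controls 2, 3, 4 and 5 it was 4.3%, 2.96%, 4.4% and 3.67%. The 8 genes called in all 10 of these fits were Myh7, Tnnt1, Myom2, Actn2, Myot, Csrp3, Smpx and Tceal7. A fit with the per-array median of the 46 genes as a covariate called 0 of them lower, and 0.0055% of all genes. That covariate is built from the genes themselves and takes out the difference they share, so it says nothing about whether they fell. The log2 fold change of each of the 26 stayed negative in every leave-one-out fit.

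**Figure D1:**
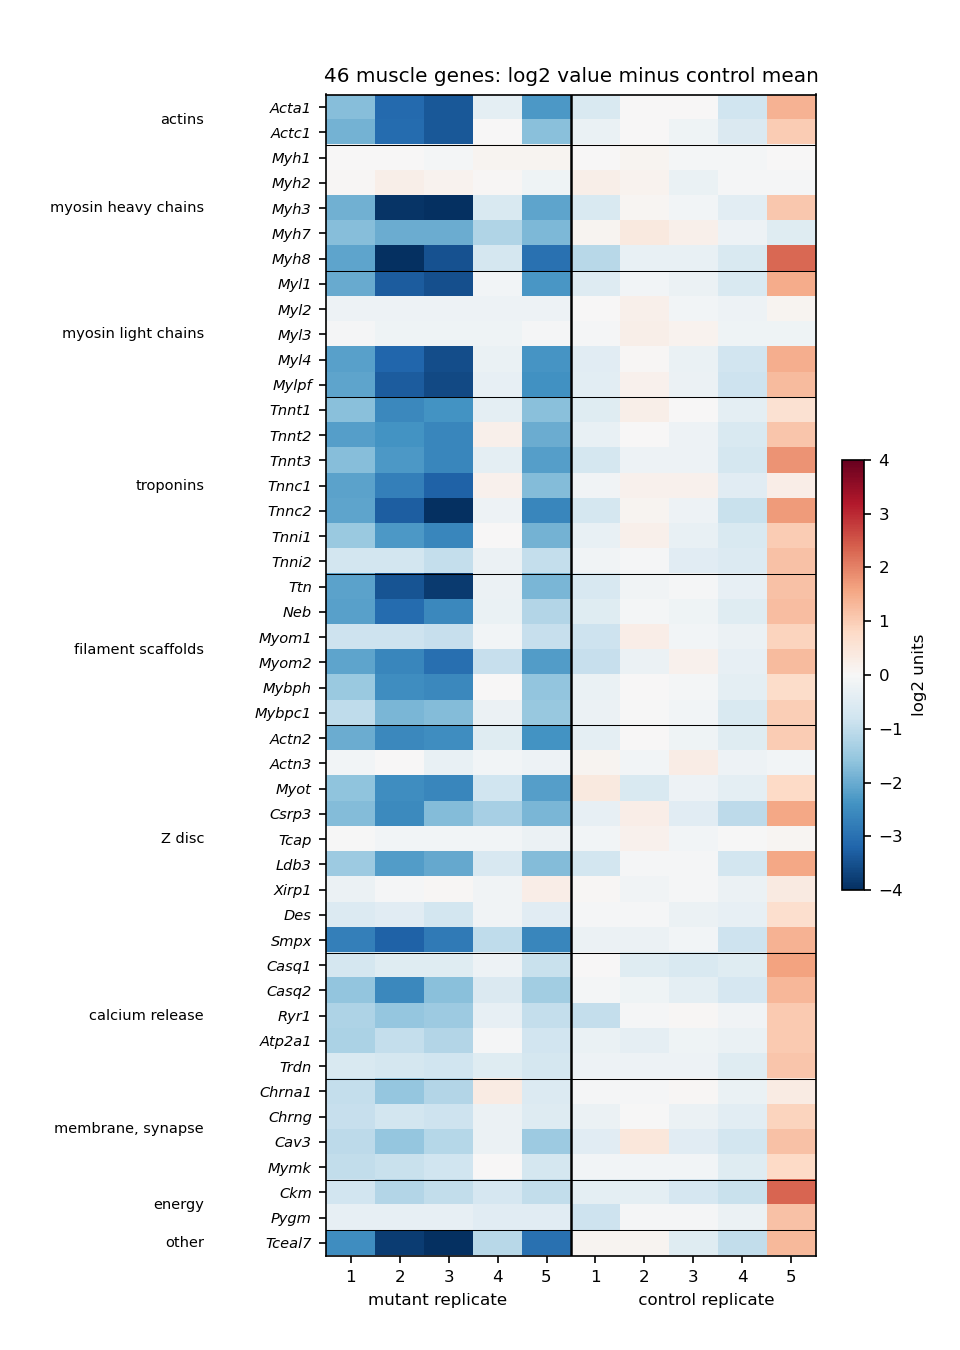
Heatmap of the 46 genes by array, as the log2 value minus the gene's control mean, with mutants 1 to 5 left of controls 1 to 5 and genes grouped by role. Mutants 2 and 3 are lowest over most of the sarcomere, mutant 4 sits near the controls, and control 5 is the highest control for 39 genes.

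**Figure D2:**
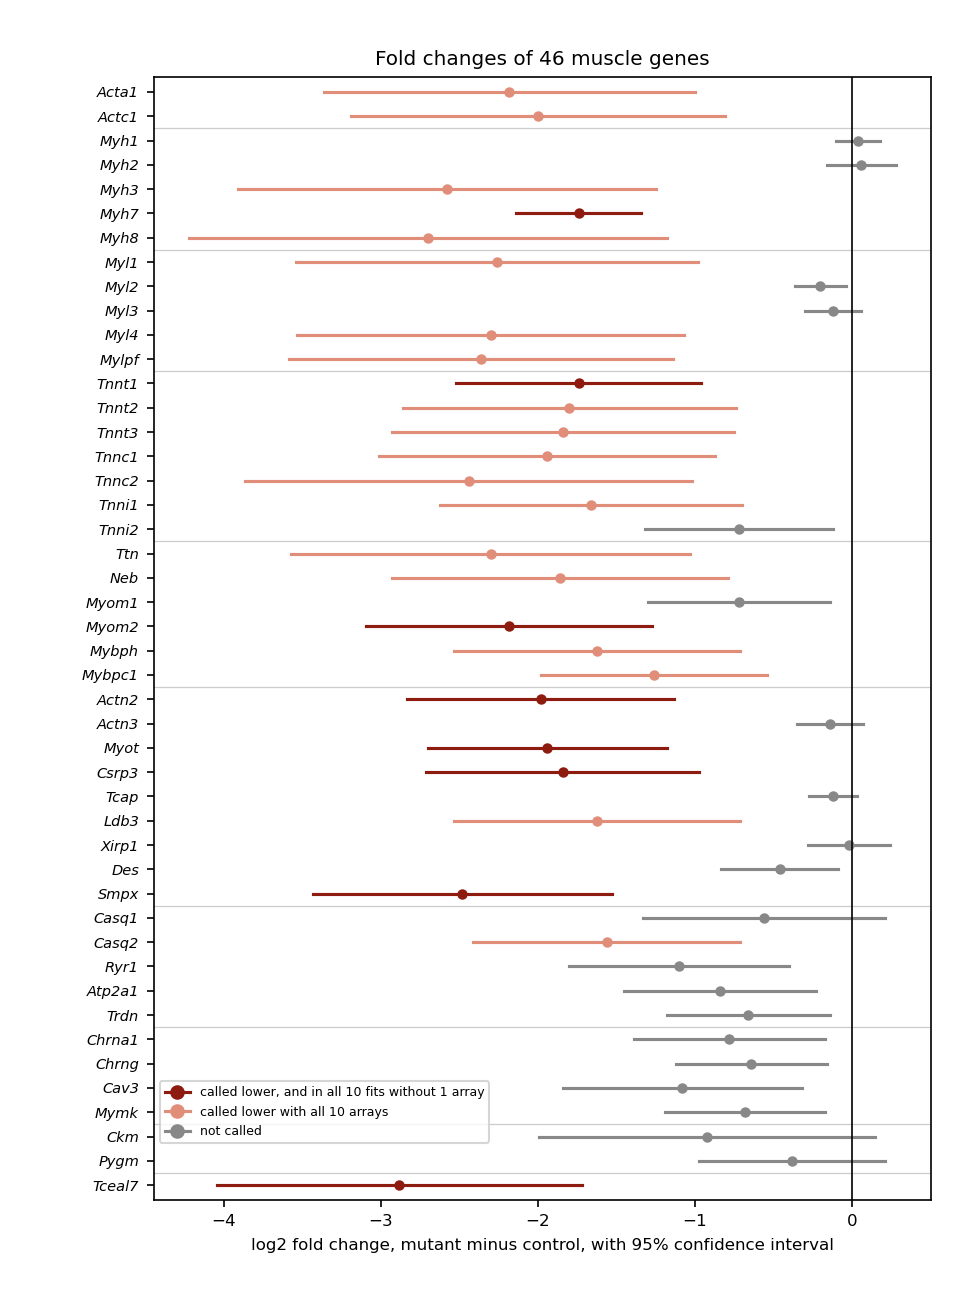
Log2 fold change, mutant minus control, of each of the 46 genes, with its 95% confidence interval from limma (5 arrays per group). The 26 genes called lower span -2.88 to -1.26, and the other 20 span -1.10 to 0.06.

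Both sarcomeric actins fell. Acta1, the skeletal alpha-actin of the thin filament, read 8.7, 7.3, 7.0, 10 and 8.1 in mutants 1 to 5, against 9.8, 10.4, 10.4, 9.6 and 11.8 in controls 1 to 5 (log2 values). Mutant 4 lay inside the control range and the other 4 mutants lay below it. The log2 fold change of Acta1 was -2.18 (SE 0.54, limma adjusted p = 0.0325), and 3 of the 10 leave-one-out fits kept the call, with adjusted p up to 0.0789. Actc1, the cardiac alpha-actin that embryonic skeletal muscle also makes, read 9.6, 8.4, 8.1, 11.5 and 9.8 in mutants, against 11.2, 11.5, 11.3, 10.9 and 12.5 in controls. Its log2 fold change was -2.0 (SE 0.54, limma adjusted p = 0.0428), and 1 of 10 leave-one-out fits kept that call.

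Of the 5 myosin heavy chain genes, the motors of the thick filament, 3 fell. Myh7, the slow chain, read 5.6, 5.3, 5.3, 6.1 and 5.5 in mutants 1 to 5, against 7.4, 7.7, 7.5, 7.1 and 6.8 in controls 1 to 5. The groups did not overlap, and control 5, the highest control for 39 of the other genes, was the lowest control here. Myh7 fell by 1.74 on the log2 scale (SE 0.18, 3.34-fold, limma adjusted p = 0.000851), the smallest adjusted p of the 46, and stayed between -1.88 and -1.64 in the leave-one-out fits. Myh3, the embryonic chain, read 8.6, 6.6, 6.2, 9.9 and 8.4 in mutants, against 9.9, 10.6, 10.4, 10.1 and 11.6 in controls, a log2 fold change of -2.58 (SE 0.61, limma adjusted p = 0.027). Only mutant 4 reached the lowest control, and 6 of 10 leave-one-out fits kept the call. Myh8, the perinatal chain, read 6.0, 3.9, 4.6, 7.4 and 5.1 in mutants, against 7.0, 7.8, 7.8, 7.5 and 10.4 in controls. Its log2 fold change was -2.70 (SE 0.70, limma adjusted p = 0.0362), with control 5 far above the other controls, and 2 of 10 leave-one-out fits kept the call.

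The adult fast chains were not called. Myh2, the IIa chain, averaged 3.22 ± 0.15 in mutants and 3.16 ± 0.19 in controls (SD, n = 5 each), and Myh1, the IIx chain, averaged 5.22 ± 0.08 in mutants and 5.18 ± 0.08 in controls. The 95% confidence intervals of their log2 fold changes, -0.16 to 0.28 for Myh2 and -0.10 to 0.18 for Myh1, leave room for small changes only as these probe sets read them. Other probe sets of Myh1 gave -0.62 and -0.64 and were not called. In the gene order of mouse chromosome 11, Myh3 comes first, followed by Myh2, Myh1, Myh4 and Myh8, so the heavy chains that fell flank those that were not called. Myh4, the IIb chain and not among the 46, had a log2 fold change of 0.00. In controls Myh2 and Myh4 averaged 3.16 each, near the lower end of the scale, where array medians were 6.4 to 6.5. For Myh1 the probe set used averaged 5.18 in controls and the others 3.82 and 3.8. A gene read near the lower end has little room to fall. The missing calls of Myh2 and Myh4 thus do not show that they responded differently from Myh3 and Myh8.

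The promoter windows of these neighbouring genes are shown because Myh3 and Myh8 were called lower and Myh2 and Myh1 between them were not, together with those of Myh7 and Tceal7, whose groups did not overlap. They are RefSeq sequences of build GRCm38.p6, read 5′ to 3′ on the gene's strand across its listed start: Myh3 at chr11:67078050-67078349 (plus strand), Myh8 at chr11:67276874-67277173 (plus), Myh2 at chr11:67170777-67171076 (plus), Myh1 at chr11:67199852-67200151 (plus), Myh7 at chr14:54994577-54994876 (minus, the first of 2 listed starts) and Tceal7 at chrX:136223791-136224090 (plus). Capitals mark E-boxes, CANNTG, the hexamer that the MyoD family of muscle factors binds, and MEF2 sites, the A and T rich element that MEF2 factors bind.
Myh3: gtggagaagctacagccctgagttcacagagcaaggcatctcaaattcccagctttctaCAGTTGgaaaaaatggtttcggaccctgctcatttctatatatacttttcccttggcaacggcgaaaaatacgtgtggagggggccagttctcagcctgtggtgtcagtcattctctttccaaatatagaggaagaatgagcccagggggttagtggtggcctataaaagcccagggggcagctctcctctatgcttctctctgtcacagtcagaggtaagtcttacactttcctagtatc
Myh8: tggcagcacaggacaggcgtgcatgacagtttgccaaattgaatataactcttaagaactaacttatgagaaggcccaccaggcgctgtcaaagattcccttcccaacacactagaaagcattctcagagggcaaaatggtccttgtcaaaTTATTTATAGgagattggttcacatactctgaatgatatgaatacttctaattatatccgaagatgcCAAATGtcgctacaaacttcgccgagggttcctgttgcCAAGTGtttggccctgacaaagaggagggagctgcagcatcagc
Myh2: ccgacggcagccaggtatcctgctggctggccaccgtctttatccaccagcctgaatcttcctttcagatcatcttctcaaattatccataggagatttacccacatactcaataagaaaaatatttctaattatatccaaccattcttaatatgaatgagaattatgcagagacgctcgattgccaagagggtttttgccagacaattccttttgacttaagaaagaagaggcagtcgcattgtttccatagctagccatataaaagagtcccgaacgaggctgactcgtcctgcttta
Myh1: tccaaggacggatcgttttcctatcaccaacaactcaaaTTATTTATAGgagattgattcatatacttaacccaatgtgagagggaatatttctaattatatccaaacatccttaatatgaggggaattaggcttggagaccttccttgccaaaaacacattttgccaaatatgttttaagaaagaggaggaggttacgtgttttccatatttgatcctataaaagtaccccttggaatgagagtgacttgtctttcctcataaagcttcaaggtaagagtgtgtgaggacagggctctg
Myh7: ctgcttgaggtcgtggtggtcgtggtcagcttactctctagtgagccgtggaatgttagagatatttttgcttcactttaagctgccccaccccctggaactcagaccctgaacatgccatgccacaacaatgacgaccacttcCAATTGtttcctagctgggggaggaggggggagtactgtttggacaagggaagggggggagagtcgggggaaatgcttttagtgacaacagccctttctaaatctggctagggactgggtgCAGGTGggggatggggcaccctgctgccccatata
Tceal7: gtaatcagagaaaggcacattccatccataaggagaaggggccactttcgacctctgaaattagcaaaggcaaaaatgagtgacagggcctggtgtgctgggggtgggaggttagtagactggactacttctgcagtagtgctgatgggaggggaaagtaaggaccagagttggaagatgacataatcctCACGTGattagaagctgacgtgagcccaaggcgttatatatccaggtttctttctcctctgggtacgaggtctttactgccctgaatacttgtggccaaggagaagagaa

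The windows of Myh3, Myh8, Myh7 and Tceal7 held 1, 2, 2 and 1 E-boxes, and those of Myh2 and Myh1 held 0. This split holds for the printed windows only, since the windows of Smpx, Myl4 and Ldb3, which also fell, held 0. The split also rests on Myh2, which read near the lower end of the scale, and on Myh1, whose probe sets all read below the array medians. A fall in these genes could thus have been missed. A MEF2 site stood 99 bases before the start of Myh8 and 211 bases before that of Myh1, so the element was present beside a gene that fell and beside one that was not called. Of the 46 genes, 36 had a window, among 27025 genes with one. On either strand, an E-box was found in 30 of the 36 windows (83.3%), against 72.1% of all windows. Among the 22 windows of genes that fell, 19 held one (86.4%). The form CAGCTG, which is itself an E-box, was in 16 of 36 (44.4%), against 16.1% of all. It was in 7 of the 22 windows of genes that fell (31.8%). A MEF2 site was in the windows of Casq2, Myh1, Myh8 and Ttn (11.1% of members), against 3.26% of all windows. A CArG box, the element bound by serum response factor, was in those of Acta1, Actc1, Ldb3, Myl3 and Myom1 (13.9%), against 1.57% of all. These are matches of letters in 1 window per gene, without a test and without a measurement of binding.

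**Figure D3:**
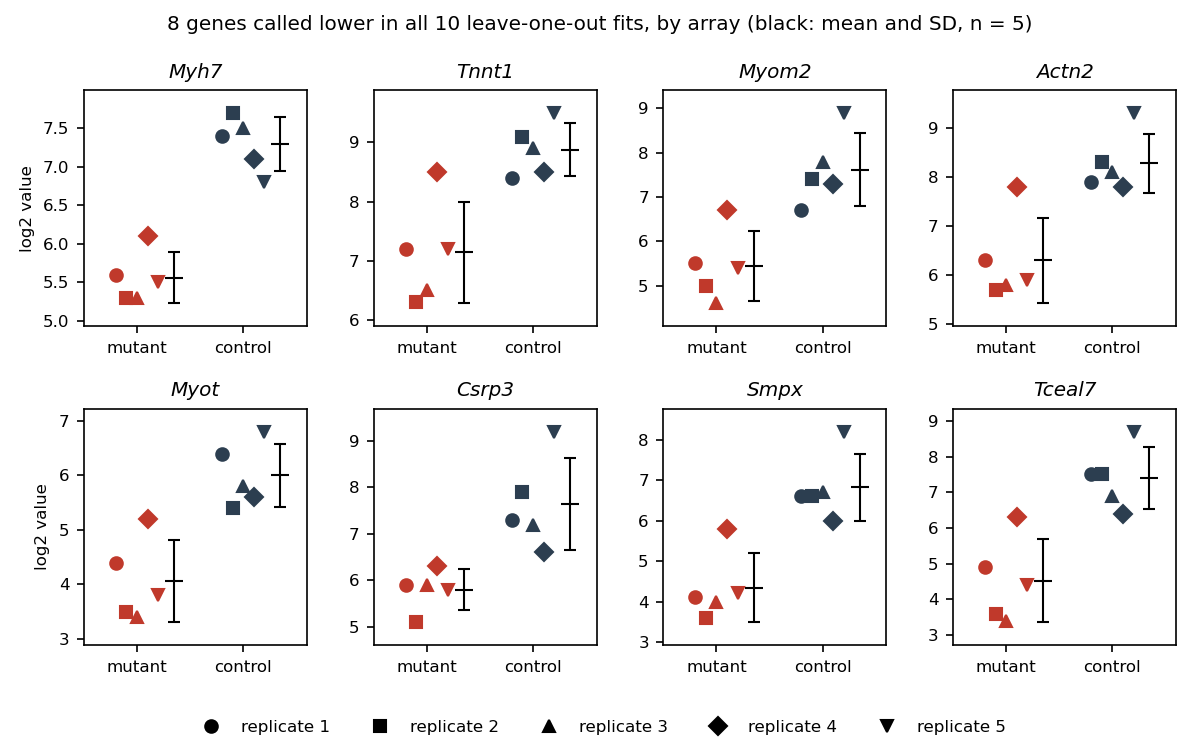
Log2 values by array of the 8 genes called lower in all 10 leave-one-out fits, with mutants left of controls, 1 point per array and the mean and SD of 5 arrays in black. In Myh7, Myot, Csrp3, Smpx and Tceal7 every mutant point lies below every control point, and in Tnnt1, Myom2 and Actn2 mutant 4 reaches the controls.

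Of the 5 myosin light chain genes, 3 fell. Myl1, the fast essential chain, averaged 7.86 ± 1.36 in mutants and 10.12 ± 0.85 in controls, a log2 fold change of -2.26 (limma adjusted p = 0.0374). Mylpf, the fast regulatory chain, averaged 7.96 ± 1.30 in mutants and 10.32 ± 0.80 in controls, a difference of -2.36 (limma adjusted p = 0.0272). Myl4, the embryonic and atrial essential chain, gave -2.30 (limma adjusted p = 0.0309), while its other probe set gave -0.04 and the mean of both -1.17 (limma adjusted p = 0.0344). In each of these 3 genes mutant 4 passed the lowest control, and 3 or 4 of the 10 leave-one-out fits kept the call. The slow chains were not called: Myl2 read 4.3 in all 5 mutants, against 4.5, 4.7, 4.4, 4.3 and 4.6 in controls (log2 fold change -0.20, 95% confidence interval -0.36 to -0.04), and Myl3 gave -0.12 (-0.30 to 0.06). A second probe set of Myl3 fell by 0.72 on the log2 scale with no overlap of the groups (limma adjusted p = 0.00854 over all probe sets), and another gave 0.04, so its probe sets disagreed.

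Among the troponins, the calcium switch of the thin filament, 6 of 7 fell. Tnnt1, the slow tropomyosin-binding subunit, read 7.2, 6.3, 6.5, 8.5 and 7.2 in mutants 1 to 5, against 8.4, 9.1, 8.9, 8.5 and 9.5 in controls 1 to 5. Mutant 4 alone reached the controls, and the log2 fold change of Tnnt1 was -1.74 (SE 0.36, limma adjusted p = 0.016), with adjusted p between 0.00314 and 0.046 in the leave-one-out fits. The fast Tnnt3 (-1.84) and the embryonic and cardiac Tnnt2 (-1.80) also fell, as did the slow calcium-binding subunit Tnnc1 (-1.94), its fast form Tnnc2 (-2.44) and the slow inhibitory subunit Tnni1 (-1.66). These 5 had limma adjusted p between 0.0346 and 0.0418, and each lost its call in 7 to 9 of the 10 leave-one-out fits. Tnni2, the fast inhibitory subunit, averaged 6.72 ± 0.29 in mutants and 7.44 ± 0.68 in controls and was not called (-0.72, limma adjusted p = 0.129). Its other probe sets gave -1.58 (limma adjusted p = 0.0835 over all probe sets) and 0.04 and were not called either, so its probe sets disagreed in size. Tnnt2, at -1.74 and -0.16 in its other probe sets, lost its call with the mean of probe sets (-1.23, limma adjusted p = 0.0654). On the scale of all probe sets its used one was not called either (limma adjusted p = 0.0554).

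The giant proteins and the thick filament's accessory proteins fell in 5 of 6 cases. Myom2, which cross-links thick filaments at the M band, read 5.5, 5.0, 4.6, 6.7 and 5.4 in mutants 1 to 5, against 6.7, 7.4, 7.8, 7.3 and 8.9 in controls 1 to 5. Mutant 4 equalled the lowest control, and Myom2 gave a log2 fold change of -2.18 (SE 0.42, limma adjusted p = 0.0116). A further pair of its probe sets fell, by 1.70 and 1.88, and another, at 0.08, was not called. Ttn, the titin spring that spans from Z disc to M band, gave -2.30 (limma adjusted p = 0.0346), with other probe sets between -1.94 and -0.16. Neb, the ruler of the thin filament, gave -1.86 (limma adjusted p = 0.0382). Mybph and Mybpc1, which bind the myosin rod, gave -1.62 and -1.26. The other probe sets of Mybpc1 gave -0.72 and -0.54 and were not called, and with the mean of probe sets Mybpc1 lost its call (-0.84, limma adjusted p = 0.152). On the scale of all probe sets the used one was not called either (limma adjusted p = 0.0507). Myom1, the relative of Myom2 at the M band, was not called (-0.72, limma adjusted p = 0.116), with 6.4 to 7.2 in mutants and 6.5 to 8.2 in controls.

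Of the 9 genes grouped as Z disc and cytoskeleton, 5 fell, and 3 of these separated mutant from control arrays. Smpx, a small protein of striated muscle encoded on the X chromosome, read 4.1, 3.6, 4.0, 5.8 and 4.2 in mutants 1 to 5, against 6.6, 6.6, 6.7, 6.0 and 8.2 in controls 1 to 5. It fell 5.58-fold (log2 fold change -2.48, SE 0.43, limma adjusted p = 0.00757), with mutant 4 just under control 4. Myot, which binds alpha-actinin and filamin at the Z disc, read 4.4, 3.5, 3.4, 5.2 and 3.8 in mutants, against 6.4, 5.4, 5.8, 5.6 and 6.8 in controls (-1.94, SE 0.35, limma adjusted p = 0.00894). Csrp3, a LIM-domain protein of the Z disc, read 5.9, 5.1, 5.9, 6.3 and 5.8 in mutants, against 7.3, 7.9, 7.2, 6.6 and 9.2 in controls (-1.84, SE 0.40, limma adjusted p = 0.0189). Its adjusted p reached 0.0498 in the leave-one-out fits, just inside the threshold. Actn2, the alpha-actinin that anchors thin filaments, read 6.3, 5.7, 5.8, 7.8 and 5.9 in mutants, against 7.9, 8.3, 8.1, 7.8 and 9.3 in controls. Mutant 4 equalled control 4, and Actn2 fell by 1.98 on the log2 scale (SE 0.39, limma adjusted p = 0.0131). Ldb3, the PDZ and LIM protein also called ZASP, gave -1.62 (limma adjusted p = 0.0362). Its other probe sets gave -0.36 and -0.10 and were not called, and with the mean of probe sets Ldb3 lost its call (-0.69, limma adjusted p = 0.0565).

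The other 4 Z-disc and cytoskeletal genes were not called. Actn3, the alpha-actinin of fast fibres, gave -0.14, the titin cap Tcap -0.12 and the actin-binding Xirp1 -0.02, and over the 10 arrays each of these 3 spanned 0.6 or less. Des, the desmin filament that links Z discs and that smooth muscle also makes, averaged 6.68 ± 0.22 in mutants and 7.14 ± 0.39 in controls (-0.46, limma adjusted p = 0.116). Tceal7, a transcription elongation factor-like gene on the X chromosome, fell most of the 46. It read 4.9, 3.6, 3.4, 6.3 and 4.4 in mutants 1 to 5, against 7.5, 7.5, 6.9, 6.4 and 8.7 in controls 1 to 5, with mutant 4 just below control 4. Its log2 fold change was -2.88 (SE 0.53, limma adjusted p = 0.00981) and stayed between -3.32 and -2.56 in the leave-one-out fits.

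In the calcium release group, 1 of 5 genes fell. Casq2, the calsequestrin of cardiac and slow fibres that stores calcium in the reticulum, read 6.2, 5.2, 6.1, 7.2 and 6.4 in mutants 1 to 5, against 7.7, 7.6, 7.4, 7.1 and 9.1 in controls 1 to 5. Mutant 4 lay just above control 4 and the other mutants below all controls. Casq2 fell 2.95-fold (log2 fold change -1.56, SE 0.39, limma adjusted p = 0.0325), and 5 of 10 leave-one-out fits kept the call. Ryr1, the release channel itself, read 5.2, 4.9, 5.0, 6.1 and 5.5 in mutants, against 5.5, 6.4, 6.5, 6.3 and 7.5 in controls. Its log2 fold change of -1.10 (SE 0.32, 95% confidence interval -1.80 to -0.40) missed the threshold with a limma adjusted p of 0.055, and 2 of 10 leave-one-out fits called it.

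The calcium pump Atp2a1, which refills the reticulum in fast fibres, averaged 6.62 ± 0.48 in mutants and 7.46 ± 0.59 in controls (-0.84, 95% confidence interval -1.45 to -0.23, limma adjusted p = 0.0879). Trdn, triadin, which ties calsequestrin to the channel, read 4.2 to 4.5 in mutants and 4.5 to 6.1 in controls and gave -0.66 (limma adjusted p = 0.11). Another probe set of Trdn fell by 0.94 with no overlap (limma adjusted p = 0.037 over all probe sets). Casq1, the fast calsequestrin, read 5.7, 5.9, 5.9, 6.2 and 5.5 in mutants, against 6.4, 5.9, 5.8, 5.9 and 8.0 in controls (-0.56, SE 0.36, limma adjusted p = 0.353). Control 5 stood alone, and the other 4 controls lay within the range of the mutants or just above it.

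None of the 4 membrane, synapse and fusion genes and neither of the 2 energy genes was called. Chrna1 and Chrng, the alpha subunit and the embryonic gamma subunit of the muscle acetylcholine receptor, gave -0.78 and -0.64, Cav3, the caveolin of the muscle membrane, -1.08, and Mymk, the fusion protein myomaker, -0.68. Their limma adjusted p-values ran from 0.079 to 0.109, and their 95% confidence intervals lay below 0. Ckm, muscle creatine kinase, read 5.5 to 6.0 in mutants and 5.8 to 6.3 in controls 1 to 4, with control 5 at 9.0 (-0.92, limma adjusted p = 0.27). Pygm, muscle glycogen phosphorylase, showed the same single high array, 7.1 in control 5, and gave -0.38 (limma adjusted p = 0.415). Of the 20 genes not called, 11 had an unadjusted p under 0.05, and the confidence intervals of 13 reached a 1.5-fold decrease, so the test does not show that these were unchanged.

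Grouped by isoform class, 4 of 6 slow, 4 of 10 fast and 5 of 6 embryonic genes fell, with median log2 fold changes of -1.70, -0.78 and -2.15. Casq2, which cardiac and slow fibres both use, was put in no class, while Casq1 counts as fast. Whether slow and fast or embryonic partners differed in response was tested on the difference of their log2 values within each array, in 8 pairs, with exact two-sided permutation tests adjusted over the 8. None passed 0.05 after adjustment. Nearest to doing so were the calsequestrins, where Casq2 minus Casq1 averaged 0.38 ± 0.68 in mutants and 1.38 ± 0.26 in controls (difference -1.0, 95% confidence interval -1.75 to -0.25). Its exact permutation p was 0.00794, the smallest that 5 against 5 can give, and 0.0635 after adjustment. Casq1 read 5.5 to 6.4 in every array but control 5, so outside that array the difference largely restates the fall of Casq2.

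In the light chains the probe sets of the slow partners spanned only 0.4 over the 10 arrays. The differences thus largely restate the fall of the fast partners Mylpf (-2.36) and Myl1 (-2.26). Whether these probe sets would register a change of the slow chains was not tested. Myl2 minus Mylpf differed between mutant and control by 2.16 (95% confidence interval 0.64 to 3.68, exact permutation p = 0.0317, adjusted 0.0952) and Myl3 minus Myl1 by 2.14 (0.45 to 3.83, exact permutation p = 0.0397, adjusted 0.0952). In the inhibitory troponins, Tnni1 minus Tnni2 was 0.62 ± 0.76 in mutants and 1.56 ± 0.18 in controls (difference -0.94, -1.75 to -0.13, exact permutation p = 0.0476, adjusted 0.0952). That difference rests on the Tnni2 probe set at -0.72, and another, at -1.58, lies close to the -1.66 of Tnni1. The 4 pairs named so far each join a gene that fell to one that was not called. Without mutant 4, all 4 of these differences passed the exact permutation test, with an adjusted p of 0.0159 each. Mutant 4 was the mutant nearest the control mean in each of the 4 pairs. Leaving it out thus widens the gap between the groups and adds no separate support.

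The remaining pairs differed by less than their spread. The difference was 0.10 (95% confidence interval -0.65 to 0.85) for Tnnt1 minus Tnnt3, 0.50 (-0.43 to 1.43) for Tnnc1 minus Tnnc2, 0.84 (-0.73 to 2.41) for Myh7 minus Myh3, and -0.18 (-0.63 to 0.27) for Acta1 minus Actc1. The exact permutation p-values of these 4 lay between 0.27 and 0.913, and each of the 4 intervals reaches past a 1.5-fold difference in at least 1 direction. Control 5 stood apart here: the mean of its called slow genes minus that of its called fast genes was -1.85, against -0.72 to 0.25 in the mutants and -0.40 to -0.25 in the other controls. Without control 5, Tnnt1 minus Tnnt3 turned to -0.20.

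**Figure D4:**
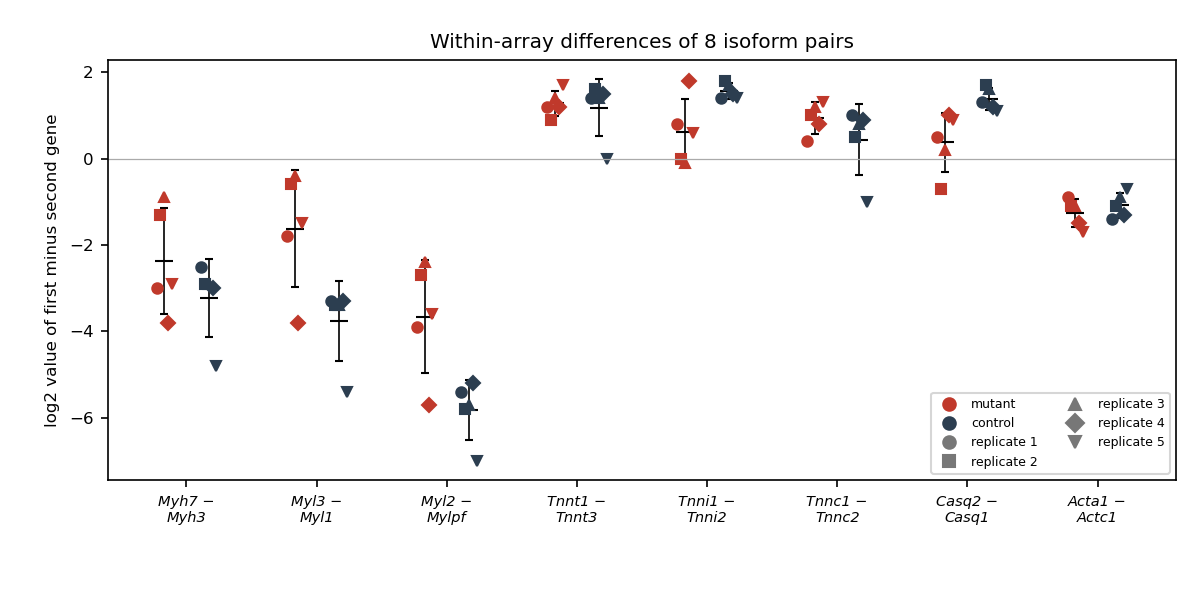
Within-array log2 difference of the 2 genes of each of 8 isoform pairs, with mutants left of controls, 1 point per array and the mean with SD. Casq2 minus Casq1 lies higher in controls (1.38) than in mutants (0.38), and in Myh7 minus Myh3 and Myl3 minus Myl1 control 5 is the lowest control, at -4.8 and -5.4.

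Genes of the same pathways outside the 46 moved in part. Of 28 further sarcomere genes measured, 8 fell and 1 rose, including Myoz2, a calcineurin-binding Z-disc protein (-1.48, limma adjusted p = 0.00926), Lmod3, which nucleates thin filaments (-1.40, 0.0143), and Ankrd1 (-0.58, 0.0219), while Smyd1, a muscle methyltransferase, rose by 0.32 (0.0373). Of 15 further genes of calcium coupling, Sln, the sarcolipin that inhibits the calcium pump (-2.42, limma adjusted p = 0.0169), Srl, the calcium-binding sarcalumenin (-1.18, 0.0166), and Mtm1, the phosphatase myotubularin (-0.44, 0.0198), fell. Myoz2, Lmod3, Sln and Srl kept their calls in all 10 leave-one-out fits, Mtm1 in 9, Ankrd1 in 6 and Smyd1 in 1. None of 11 further synapse and membrane genes was called, the receptor subunit Chrnb1 being nearest (-0.78, limma adjusted p = 0.0528), and of 8 metabolic genes only myoglobin, Mb, fell (-0.36, 0.0396, kept in 1 of 10 fits). Of 11 myogenic factors, Myf5 (-1.86, limma adjusted p = 0.00258), Msc (-0.82, 0.0271) and Myod1 (-0.92, 0.0457) fell and Pax3 rose by 0.58 (0.0131). Of these, Myf5 and Pax3 kept their calls in all 10 leave-one-out fits, Msc in 4 and Myod1 in 2. Among all genes, 5.36% fell and 2.9% rose.

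Markers of other tissues were read in the same arrays. The median of 10 palatal mesenchyme markers was 9.9 to 10.3 in mutants and 10 to 10.25 in controls, with Tbx22 higher and Barx1 lower. Of 7 smooth muscle markers, Myh11, Smtn and Acta2 fell by 0.52, 0.40 and 0.72, and the summed log2 value of the list was 49.2 to 50.8 in mutants and 51.6 to 54.3 in controls. Of 10 epithelial markers, Krt13 and Krt4 rose by 1.88 and 0.92, with sums of 102.0 to 106.2 in mutants and 96.6 to 102.9 in controls. Their medians overlapped too, at 10.45 to 10.85 in mutants and 10.2 to 11.05 in controls. The cardiac markers Nppa and Myh6 averaged 3.44 and 3.46 in both groups, near the lower end of the scale, and Tnni3 alone of 7 was higher (0.48). No endothelial, erythroid, nerve and glial, cartilage and bone or leukocyte marker was called. The part of these differences in the fall of the muscle genes was not tested. Tgfbr2 itself gave 0.08 (95% confidence interval -0.06 to 0.22, limma adjusted p = 0.482), and this checks nothing, because the sources used here do not place its probe set relative to the deleted exons.

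Among all 18194 genes, 1503 (8.26%) were called, 975 of them lower. In 218 genes control 1 lay over 2-fold away from its group's remaining arrays, against 12 to 63 such genes for any other array. Without it 26 of the 46 genes were called lower, 24 of them the same, and 6.08% of all genes. Eif2s3y, on the Y chromosome, read 9.0 or more in mutants 1 to 4 and controls 1 and 4. It read 5.1 in mutant 5 and 3.2, 3.3 and 3.2 in controls 2, 3 and 5. High readings were thus split unevenly between the groups, as the undetermined sex of the samples may be, and this covariate overlaps with genotype. With Eif2s3y as a covariate 6 of the 46 were called lower, Myh7, Myom2, Actn2, Myot, Smpx and Tceal7. In that fit 3.72% of all genes were called lower. No label states that the numbered samples are different embryos, so the p-values speak of the spread among these arrays alone, whose number limits the precision.

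**Figure D5:**
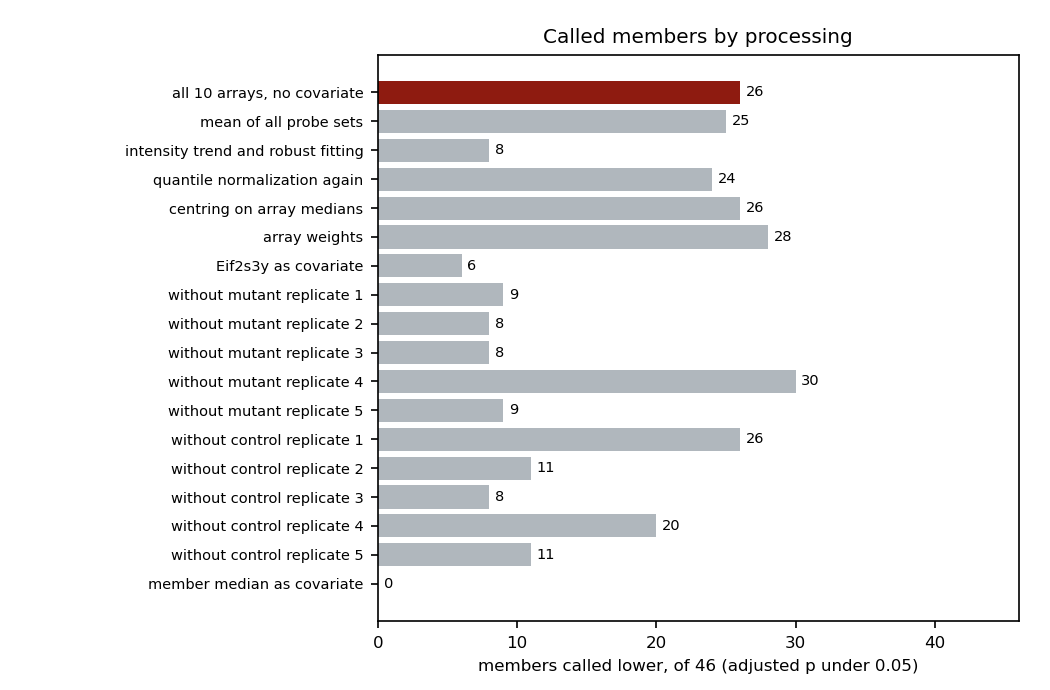
Number of the 46 genes called lower (limma adjusted p under 0.05), with bars from 0. Shown are the fit with all arrays and some, not all, of the alternative fits of all 46 genes. Among the alternatives given in the text, the fit with the replicate number as a block called 5 of the 46 lower. The count is 26 as reported, 8 to 30 with 1 array left out, 6 with Eif2s3y as a covariate and 0 with the per-array median of the 46 genes as a covariate, which removes by construction what they share.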

How the data were processed

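Values were the log2 intensities deposited by the authors, made with RMA (no version stated), per the submitters' processing notes. They are rounded to steps of 0.1, which hides smaller differences. Array medians were 6.4 to 6.5, and at most 29.1% of rounded values were identical between 2 arrays. Of 45101 probe sets, 34958 with 1 symbol were used, 34754 of them found by Entrez ID in a RefSeq gene table (GRCm38.p6). The 46 genes had 77 probe sets. Other probe sets were called with adjustment over all probe sets with 1 symbol, the used ones with adjustment over genes. The used probe sets of Tnnt2, Tnni2, Myom2, Trdn and Casq2 carry a suffix for cross-hybridisation. The genes, lists, pairs and tests were chosen with earlier results of these data known.

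Mutant minus control was fitted over 18194 genes with limma 3.58.1 in R 4.3.3 (lmFit, eBayes, no filter, no covariate), with Benjamini-Hochberg adjustment and a threshold of 0.05. The fit was tested on simulated data. Errors are SD (n = 5) or the SE of the fit. Intervals of pair differences use the pooled SD of both groups. Alternatives were the mean of probe sets, robust fitting with an intensity trend, array weights, median centring, quantile normalization, the brighter 60% of genes, a sample-number block, Eif2s3y as a covariate, each array left out and, added after the data were seen, the per-array median of the 46 genes as a covariate. All 46 genes may be named. Outside them, names are up to 3 called genes per list and direction with the smallest p, or the nearest where none was called, and markers that complete small counts. Promoter windows are RefSeq's.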

Additional observations from a re-analysis of the deposited data

Results flagged for a closer look

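Within a group of 5 arrays, 17 of 108 groups (46 genes and 8 pair differences, each in both genotypes) had 1 array standing far from the other 4. For a single group chance gives about 1 in 20, but the 108 groups read the same 10 arrays again and again. All 17 flags fell on mutant 4 or control 5, so they are not separate events and their number cannot be set against chance. Mutant 4 was far above the other mutants in 5 genes, at 8.2 for Tnnt2, 7.2 for Tnni2, 7.2 for Myom1, 7.8 for Actn2 and 5.8 for Smpx. Control 5 was far above the other controls in 8 genes, at 10.4 for Myh8, 11.6 for Myl1, 9.5 for Tnnt3, 8.7 for Neb, 8.0 for Casq1, 8.5 for Atp2a1, 6.1 for Trdn and 9.0 for Ckm. In 4 pairs the difference in control 5 was far below that of the other controls, at -4.8 for Myh7 minus Myh3, -5.4 for Myl3 minus Myl1, 0.0 for Tnnt1 minus Tnnt3 and -1.0 for Tnnc1 minus Tnnc2. Without mutant 4 the test called 30 of the 46 genes lower, and without control 5 it called 11. Of all genes, 3.86% and 3.67% were called lower in these fits. What sets these arrays apart was not tested.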

How the results depend on the processing

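The count of the 46 genes called lower, 26 as reported, was 25 with the mean of probe sets (23 of the 26, without Tnnt2, Mybpc1 and Ldb3, plus Myl3 at -0.27 and Trdn at -0.48), 24 with quantile normalization again, 26 with median centring and 28 with array weights. It was 17 of the 24 fitted among the brighter 60% of genes, 8 with an intensity trend and robust fitting, 6 with Eif2s3y as a covariate, and 8 to 30 with 1 array left out. With the replicate number as a block it was 5, Myh7, Myom2, Myot, Smpx and Tceal7. Of all genes, 5.36% were called lower as reported. That share was 4.97% with the mean of probe sets, 3.74% with quantile normalization, 2.61% with median centring and 7.33% with array weights. It was 10% among the brighter 60%, 5.71% with trend and robust fitting and 3.72% with Eif2s3y. With 1 array left out it was 2.51% to 6.08%, and with the block 2.01%. The replicate numbers do not pair the samples by design: deviations of same-numbered arrays correlated at 0.0289, 0.057, -0.0526, -0.0994 and 0.105. The pair differences under the block reached no threshold, since 5 sign flips give no exact permutation p under 0.0625. Over all genes, 1503 called became 532 with the block, 643 to 1798 with 1 array left out, 292 with a fold of 1.5 as well, and 1 with the median of the 46 genes as a covariate. Median centring moved the median of all genes to 0.08 and its calls to 474 lower of 1757, against 975 of 1503, and quantile normalization gave 681 of 1195, with the 46 genes at a median of -1.54 and -1.62. That covariate, added after seeing the data, takes out what the 46 genes share per array, and 0 of them were called. Under it Myh7 was at -1.62 (limma adjusted p = 0.0807, 95% confidence interval -2.29 to -0.96). It turned the sign of 26 genes: Actc1 0.08, Myh2 -0.02, Myh8 0.14, Myl1 0.15, Myl4 0.03, Tnnt2 0.18, Tnnt3 0.25, Tnnc2 0.22, Tnni1 0.12, Tnni2 0.31, Neb 0.04, Myom1 0.26, Mybpc1 0.09, Ldb3 0.09, Xirp1 0.13, Des 0.17, Casq1 0.56, Ryr1 0.11, Atp2a1 0.25, Trdn 0.14, Chrna1 0.20, Chrng 0.19, Cav3 0.28, Mymk 0.25, Ckm 0.70 and Pygm 0.34. Other turned signs were Myh1 at -0.41 (mean of probe sets), -0.01 (quantile) and -0.62 and -0.64 (other probe sets), Myh2 at -0.04 (Eif2s3y), Xirp1 at 0.06 (centring), 0.09 (Eif2s3y) and -0.09 to 0.07 (1 array left out), and other probe sets of Myl3 (0.04), Tnni2 (0.04), Myom2 (0.08), Des (0.18), Chrng (0.20) and Ckm (0.06). Without mutant 4, the pair differences were 2.69 for Myl3 minus Myl1, 2.67 for Myl2 minus Mylpf, -1.23 for Tnni1 minus Tnni2 and -1.15 for Casq2 minus Casq1. Each passed the exact permutation test, but the array left out was the mutant nearest the control mean in each of these pairs. Over single arrays left out these differences ran from 1.73 to 2.69, 1.84 to 2.67, -1.23 to -0.76 and -1.15 to -0.73. Tnnt1 minus Tnnt3 ran from -0.20 to 0.20 and turned without mutant 5 (-0.01) and without control 5 (-0.20). The cause of these changes was not tested.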

Other observations

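Of the 28 further sarcomere genes measured, 8 fell, 1 rose and 19 were not called, and the 5 of the 8 not yet named are given here. Klhl41 and Klhl40, kelch proteins of the muscle sarcomere, fell by 1.38 and 0.70 on the log2 scale (limma adjusted p = 0.0273 and 0.03), and Unc45b, the chaperone that folds muscle myosin, fell by 1.10 (limma adjusted p = 0.0374). Klhl41 read 3.5, 3.8, 3.4, 5.1 and 4.5 in mutants 1 to 5, against 5.4, 5.3, 5.3, 4.9 and 6.3 in controls 1 to 5, with mutant 4 above the lowest control. Pdlim3 and Fhl1, LIM-domain proteins of the Z disc and sarcomere, fell by 0.84 and 0.44 (limma adjusted p = 0.0338 and 0.03) with no overlap between the groups. These 5, and Mymx and Myog, were named after their values were seen. Each of the 5 calls was lost in 5 or more of the 10 fits with 1 array left out. Mymx, the fusion partner of Mymk, gave -1.10 and Myog, the differentiation factor, -1.14, and neither was called (limma adjusted p = 0.125 and 0.127). Both read highest among mutants in mutant 4, at 7.2 for Mymx and 8.5 for Myog. Myog there exceeded every control, whose highest value was 8.4.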
